A study of Mus musculus with 40 samples.

Results

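The genes of sterol and lipid synthesis that the sterol regulatory element-binding proteins (SREBPs) control were followed through mRNA sequencing of the extensor digitorum longus (EDL), a fast muscle of the mouse hindlimb. The members were 34 genes chosen by name from the 22844 genes of the deposited table, and all 34 were among the 13543 genes with enough counts to be tested. They fell into 5 regulators and sterol handling genes (Srebf1, Srebf2, Scap, Insig1 and Stard4), a sterol arm of 17 genes (Hmgcs1, Mvk, Pmvk, Mvd, Idi1, Fdps, Fdft1, Sqle, Lss, Cyp51, Dhcr7, Sc5d, Msmo1, Nsdhl, Hsd17b7, Ebp and Tm7sf2) and a fatty acid arm of 12 genes (Fasn, Acaca, Acacb, Acly, Scd1, Scd2, Elovl5, Elovl6, Fads1, Fads2, Acss2 and Me1). The 40 libraries came from 40 mice, 5 in each of 8 groups. TSCmKO mice carried floxed Tsc1 alleles (strain label Tsc1tm1Djk/J) deleted by Cre recombinase in skeletal muscle fibers, and control mice (CON) were littermates with the floxed alleles and no Cre. Tsc1 protein restrains the kinase complex mTORC1, which stays active in fibers that lack it, while the other cells of the muscle keep their Tsc1. Mice were 3 or 9 months old and received vehicle or the mTORC1 inhibitor rapamycin (written +RM) by intraperitoneal injection for 3 days. The labels give 4 mg per kg for rapamycin, but the sources used here do not give 1 dose for it throughout, so the dose is uncertain. The promoter that drove Cre was not given in the sources used here.

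SREBPs are made as precursors held in the membrane of the endoplasmic reticulum. When membrane sterol is low, the escort protein SCAP carries them to the Golgi apparatus, where proteases release the active transcription factor, and INSIG proteins hold SCAP back when sterol is plentiful. SREBP-2, encoded by Srebf2, acts mainly on genes that make and take up cholesterol, and SREBP-1, encoded by Srebf1, mainly on genes that make fatty acids. mTORC1 is known to promote the release of active SREBPs in several cell types. Liver and fat are the classical sites of this program, while muscle fibers mostly take up and burn fatty acids.

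SREBPs bind a sterol regulatory element (SRE) and often act beside the factor NF-Y. To show the DNA that the members share, promoter windows of 250 bases before the start site were read from RefSeq (build GRCm38.p6), which matched 27 of the 34 genes with 34 windows. Both strands were searched for TCACNCCAC (an SRE), CCAAT (the NF-Y box) and CACGTG (an E-box, which SREBP-1 can also bind), and these motifs do not contain each other. Below, 7 windows are printed from 5′ to 3′ on the strand of the gene, with SRE and NF-Y matches in capitals. They are those of Hmgcs1 (chr13:119690101-119690350, + strand), the gene with an SRE match, of Insig1 (chr5:28071162-28071362, + strand), Mvd (chr8:122443423-122443672, - strand), Nsdhl (chrX:72918271-72918520, + strand) and Sc5d (chr9:42264301-42264550, - strand), which passed tests for genotype or rapamycin, and of Fasn (chr11:120824548-120824797, - strand) and Acly (chr11:100528001-100528250, - strand), the synthase of the fatty acid arm and the enzyme that supplies its acetyl-CoA. Each lies upstream of the first exon in the GENCODE M21 annotation, and the window of Insig1 was shortened to 201 bases so that it does not enter the gene.
Hmgcs1: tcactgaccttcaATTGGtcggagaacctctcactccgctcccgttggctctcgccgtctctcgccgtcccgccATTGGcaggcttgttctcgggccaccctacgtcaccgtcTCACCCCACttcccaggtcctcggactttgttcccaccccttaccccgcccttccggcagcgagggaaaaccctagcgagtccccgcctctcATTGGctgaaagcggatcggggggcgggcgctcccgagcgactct
Insig1: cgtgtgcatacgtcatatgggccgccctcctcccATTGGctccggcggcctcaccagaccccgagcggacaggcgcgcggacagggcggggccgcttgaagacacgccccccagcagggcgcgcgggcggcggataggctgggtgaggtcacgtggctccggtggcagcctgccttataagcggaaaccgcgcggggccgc
Mvd: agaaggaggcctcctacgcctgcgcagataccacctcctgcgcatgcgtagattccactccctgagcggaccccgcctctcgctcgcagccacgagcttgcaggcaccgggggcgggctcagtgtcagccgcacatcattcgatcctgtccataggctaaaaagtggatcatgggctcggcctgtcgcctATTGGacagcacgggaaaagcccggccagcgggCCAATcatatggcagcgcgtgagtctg
Nsdhl: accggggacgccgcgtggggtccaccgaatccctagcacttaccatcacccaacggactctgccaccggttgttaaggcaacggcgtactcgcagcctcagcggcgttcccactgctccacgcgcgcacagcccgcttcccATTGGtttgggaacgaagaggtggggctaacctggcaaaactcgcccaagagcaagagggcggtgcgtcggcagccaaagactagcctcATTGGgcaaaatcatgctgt
Sc5d: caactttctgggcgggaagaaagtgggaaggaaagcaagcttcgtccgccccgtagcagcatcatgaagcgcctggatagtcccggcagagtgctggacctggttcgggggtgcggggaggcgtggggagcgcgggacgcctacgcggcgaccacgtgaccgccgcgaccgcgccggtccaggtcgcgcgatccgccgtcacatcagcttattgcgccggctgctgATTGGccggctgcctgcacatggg
Fasn: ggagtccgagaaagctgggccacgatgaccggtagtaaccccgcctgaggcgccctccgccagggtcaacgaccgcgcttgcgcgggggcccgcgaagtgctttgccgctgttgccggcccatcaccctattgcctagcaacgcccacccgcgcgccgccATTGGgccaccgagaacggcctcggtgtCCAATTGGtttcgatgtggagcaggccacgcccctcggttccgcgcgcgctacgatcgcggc
Acly: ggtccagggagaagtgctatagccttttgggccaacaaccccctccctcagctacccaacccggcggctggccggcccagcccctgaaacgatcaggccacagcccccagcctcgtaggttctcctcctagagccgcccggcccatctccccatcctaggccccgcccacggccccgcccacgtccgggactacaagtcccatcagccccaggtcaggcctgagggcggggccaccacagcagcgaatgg
The exact SRE letters were found in 1 of the 27 members, Hmgcs1, 137 bases before the start site, and in 1.22% of the 27025 genes with a window. CCAAT was found in 14 of 14 sterol arm genes with a window, in 5 of 9 fatty acid arm genes and in 3 of 4 regulators, against 37.5% of all genes. CACGTG was found in 6 members (Insig1, Scap, Sc5d, Hsd17b7, Dhcr7 and Elovl5), which is 22.2% of the 27, against 6.86% of all genes. Many of these windows reach into the gene or start inside it. Counting matches that lie wholly upstream of the GENCODE M21 gene model, CCAAT remained in 9 of the 14 sterol arm genes (not in Cyp51, Dhcr7, Idi1, Msmo1 and Tm7sf2), in 2 of the 9 fatty acid arm genes and in 3 of the 4 regulators, against 28% of the 20592 genes with a window and a gene model. CACGTG then remained in 4 members (not in Scap and Dhcr7), against 5.17%, and the SRE letters in Hmgcs1, against 0.85%. A match is a description of letters in these windows, and a window without a match says nothing about binding. Fads1, Fdft1, Fdps, Stard4, Sqle, Scd1 and Scd2 had no window.

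Levels of different genes were compared as TPM, a unit scaled by transcript length that the authors computed. In 3mCON muscle the highest member was Me1, the malic enzyme that supplies NADPH, at 294 ± 23.2 TPM (mean ± SD, n = 5). Next came Acacb, the acetyl-CoA carboxylase of the mitochondrial surface whose product restrains fatty acid oxidation, at 102 ± 8.896 TPM. The desaturase Scd1 had a mean of 81.4 ± 85.4 TPM that rested on replicate 3 at 233 TPM, since the other 4 libraries lay between 28.1 and 58.5 TPM. Squalene synthase (Fdft1) at 59.5 ± 4.62 TPM and Srebf1 at 58.4 ± 8.51 TPM followed, and these did not differ beyond their spread. Srebf2 was listed at 6.795 ± 0.8896 TPM, far under Srebf1. The lowest member was Sqle, the squalene epoxidase, at 0.7801 ± 0.328 TPM. Together the 34 genes held 0.113% to 0.233% of the counts of a library. Values of genes are from here on CPM, counts scaled to library size by the trimmed mean of M values (TMM), which compare 1 gene between libraries and not genes with each other, and marker lists are given as summed TPM.

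Tsc1 itself checked the genotype labels. Its level was 84.1 to 134 CPM in 3mCON, 26.5 to 30.7 in 3mTSCmKO, 51.3 to 122 in 9mCON and 24.4 to 35.8 in 9mTSCmKO, with no overlap between genotypes, and likewise 52.99 to 94.9, 18.7 to 23.2, 71.99 to 87.5 and 17.8 to 25.7 CPM in the same groups under rapamycin. Total counts ran from 8883870 to 35224669 per library. Mean insert size on the labels was 175 to 239 nt in the younger and 223 to 308 nt in the older mice, so age and library preparation cannot be told apart. The summed level of 7 fast fiber markers was 110329 to 164602 TPM in the 40 libraries, and those of 8 adipocyte and 6 Schwann cell markers were 359.9 to 1299.9 and 41.3 to 382 TPM, so RNA of cells other than fibers was present in each library. In bulk tissue, fewer cells of a type and less RNA per cell cannot be told apart. Library 3mCON replicate 3 was the highest of its group in Insig1, Mvd, Fasn and Scd1, and 9mTSCmKO replicate 1 stood apart in Elovl6, Scd1 and Msmo1.

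The first comparison asked what constant mTORC1 activity in fibers does to the program in young muscle. At 3 months, 5 of the 34 members were higher in TSCmKO than in CON and 0 were lower, while 11.4% of all genes tested were higher and 8.32% lower (edgeR quasi-likelihood test, adjusted p under 0.05). The regulator Insig1 and 4 sterol arm genes (Cyp51, Sc5d, Nsdhl and Fdps) rose, and 0 of the 12 fatty acid arm genes passed the test.

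Insig1, the brake on SREBP release and itself an SREBP target, was at 15.3, 15.6, 21.03, 16.2 and 15.8 CPM in the 5 libraries of 3mCON (replicates 1 to 5) and at 38.02, 30.5, 34.3, 34.04 and 26.9 CPM in 3mTSCmKO. The groups did not overlap, although 3mCON replicate 3 stood above the other controls. For Insig1 the log2 fold change was 0.96 ± 0.17 (SE), adjusted p = 5.44e-05. Cyp51, the demethylase that acts on lanosterol, was at 7.67, 6.005, 5.54, 6.16 and 5.24 CPM in 3mCON and 15.2, 13.8, 11.8, 10.5 and 12.8 CPM in 3mTSCmKO. Each TSCmKO library lay above each control. Its log2 fold change of 1.06 ± 0.14 (SE), adjusted p = 1.57e-07, was the largest among the called members. Sc5d, a desaturase of the last steps of cholesterol synthesis, was at 43.95, 49.1, 38.1, 43.4 and 42.5 CPM in 3mCON and 75.3, 54.7, 65.1, 46.1 and 60.3 CPM in 3mTSCmKO. Here 3mTSCmKO replicate 4 lay under 3mCON replicate 2, so the groups overlapped by these libraries. For Sc5d the log2 fold change was 0.47 ± 0.10 (SE), adjusted p = 0.000279. Nsdhl, a sterol dehydrogenase that takes part in removing methyl groups, was at 3.92, 3.82, 3.35, 3.45 and 3.802 CPM against 5.403, 5.94, 6.06, 5.21 and 4.498 CPM. Fdps, which makes farnesyl diphosphate for sterols and prenylated proteins, was at 16.2, 16.1, 14.8, 16.5 and 17.7 CPM against 22.9, 27.4, 21.5, 18.97 and 21.95 CPM. Neither overlapped between the groups. The log2 fold change of Nsdhl was 0.57 ± 0.15 (SE), adjusted p = 0.00405, and that of Fdps was 0.47 ± 0.13 (SE), adjusted p = 0.00723.

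The other 13 sterol arm genes did not pass the test at 3 months, with log2 fold changes from -0.48 (Pmvk, adjusted p = 0.0692) to 0.42 (Mvd, adjusted p = 0.182). The 12 fatty acid genes ran from -0.15 (Elovl5) to 0.95 (Fasn, adjusted p = 0.15). Fasn, the fatty acid synthase, was at 19.7, 24.2, 55.6, 21.2 and 16.1 CPM in 3mCON and 59.9, 45.3, 59.2, 76.6 and 24.5 CPM in 3mTSCmKO. Control replicate 3 fell within the TSCmKO range and TSCmKO replicate 5 near the other controls. Without 3mCON replicate 3, Fasn and Mvd were called for genotype, and Scd2 was called in a fit of the compared groups alone. The count of 0 in the fatty acid arm thus depended on that library and on the groups fitted. The median log2 fold change was -0.02 in the sterol arm and 0.07 in the fatty acid arm, against -0.02 over all genes tested. When the fit held only 3mCON and 3mTSCmKO libraries, 9 members were called, 8 of them higher, while the calls over all genes rose from 2676 to 3667. Of the tendon markers 1 of 6, Scx, was lower in TSCmKO at 3 months (-0.96, adjusted p = 0.0196), and it was the one marker of any list that passed the test here. The log2 fold changes were below 0 for all 6 tendon (median -0.74), all 6 Schwann cell (median -0.39) and all 4 endothelial markers (median -0.24). Those of all 4 slow fiber (median 0.81) and all 5 macrophage markers (median 0.11) were above 0. Their part in the results was not tested.

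**Figure D1:**
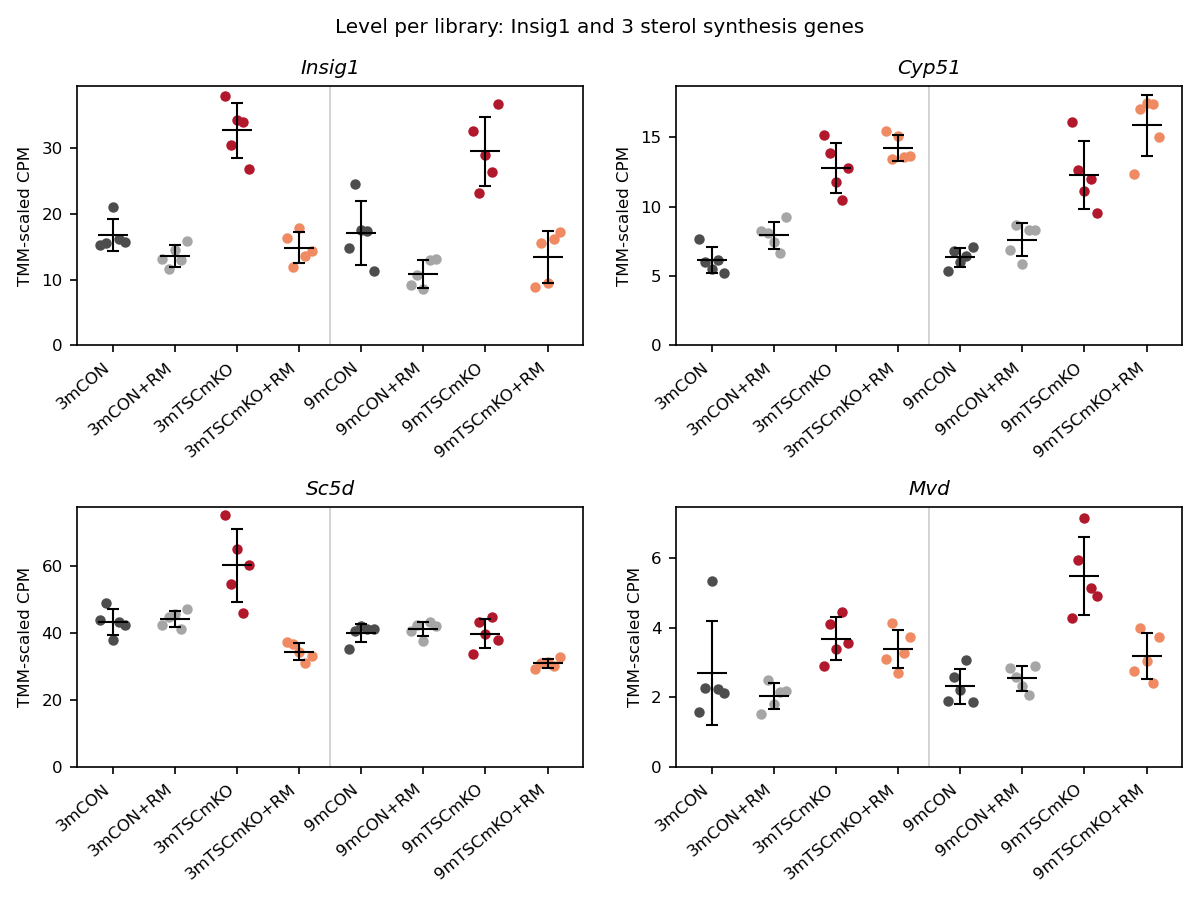
TMM-scaled CPM (y axis) of Insig1, Cyp51, Sc5d and Mvd in each library of the 8 groups (x axis), with the group mean and SD as bars, n = 5. Insig1 in TSCmKO (26.9 to 38.02 CPM at 3 months) lay above TSCmKO+RM (11.9 to 17.9), while Cyp51 stayed high under rapamycin and Sc5d fell below the controls.

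At 9 months, 5 members were higher and 4 lower in TSCmKO than in CON. Of all genes tested, 19.1% were higher and 18.9% lower. Insig1, Mvd, Cyp51, Elovl6 and Acss2 were higher, and Srebf1, Hsd17b7, Fads2 and Me1 were lower.

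Among the regulators, Insig1 was at 14.9, 24.5, 17.5, 17.4 and 11.4 CPM in 9mCON and 32.6, 23.2, 29.04, 26.4 and 36.7 CPM in 9mTSCmKO. The groups overlapped only through 9mCON replicate 2, which lay above 9mTSCmKO replicate 2. For Insig1 the log2 fold change was 0.79 ± 0.17 (SE), adjusted p = 0.000357. Srebf1, the gene of the factor that drives fatty acid synthesis, went the other way, with 53.3, 48.4, 50.03, 55.9 and 67.5 CPM in 9mCON and 32.2, 38.8, 26.9, 30.2 and 42.3 CPM in 9mTSCmKO. Each TSCmKO library lay below each control. For Srebf1 the log2 fold change was -0.69 ± 0.15 (SE), adjusted p = 0.000474.

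In the sterol arm, Cyp51 was at 5.37, 6.79, 6.01, 6.44 and 7.08 CPM in 9mCON and 16.1, 12.6, 11.1, 12.005 and 9.54 CPM in 9mTSCmKO, without overlap, a log2 difference of 0.95 ± 0.14 (SE), adjusted p = 5.45e-07. Mvd, the decarboxylase that completes isopentenyl diphosphate, was at 1.89, 2.57, 2.19, 3.06 and 1.86 CPM in 9mCON and 4.27, 5.94, 7.15, 5.14 and 4.8996 CPM in 9mTSCmKO. The groups did not overlap, and the log2 fold change was 1.24 ± 0.22 (SE), adjusted p = 2.84e-05. Hsd17b7, a reductase of the same late stretch of the pathway as Cyp51, was at 6.91, 16.8, 18.8, 15.8 and 14.8 CPM in 9mCON and 9.62, 8.53, 7.88, 6.46 and 7.04 CPM in 9mTSCmKO. Control replicate 1 lay within the TSCmKO range and the other 4 controls above it. For Hsd17b7 the log2 fold change was -0.88 ± 0.21 (SE), adjusted p = 0.000793. The other 14 genes of the arm did not pass the test, with log2 fold changes from -0.37 (Dhcr7) to 0.41 (Sqle), and the median of the arm was -0.01.

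In the fatty acid arm, Fads2, a desaturase that starts the synthesis of long polyunsaturated fatty acids, was at 1.65, 1.51, 1.38, 1.75 and 2.89 CPM in 9mCON and 1.14, 0.706, 0.447, 0.231 and 0.525 CPM in 9mTSCmKO. These low levels did not overlap. For Fads2 the log2 fold change was -1.59 ± 0.35 (SE), adjusted p = 0.000359. Acss2, which makes cytosolic acetyl-CoA from acetate, was at 31.002, 32.9, 36.95, 36.1 and 44.1 CPM in 9mCON and 43.1, 63.9, 56.4, 52.6 and 43.5 CPM in 9mTSCmKO. Replicates 1 and 5 of TSCmKO lay just under the highest control. For Acss2 the log2 fold change was 0.52 ± 0.13 (SE), adjusted p = 0.00141. Me1 was at 378, 519.6, 475, 475 and 387 CPM in 9mCON and 249, 290.2, 291, 371 and 438 CPM in 9mTSCmKO, with 9mTSCmKO replicate 5 inside the control range. For Me1 the log2 fold change was -0.45 ± 0.13 (SE), adjusted p = 0.00587. Elovl6, the elongase of saturated and monounsaturated fatty acids, was at 35.7, 14.9, 20.7, 13.8 and 7.798 CPM in 9mCON and 102, 22.4, 22.7, 19.7 and 27.8 CPM in 9mTSCmKO. A log2 difference of 1.07 ± 0.34 (SE), adjusted p = 0.013, rested on 9mTSCmKO replicate 1, since without it the log2 fold change was 0.32 and the adjusted p = 0.359. In a fit of 9mCON and 9mTSCmKO alone, the calls of Me1 (adjusted p = 0.107) and Elovl6 (adjusted p = 0.127) were lost. The other 8 genes of the arm were below 0 in log2 fold change, from -0.52 (Scd2) to -0.10 (Scd1), and none passed the test by edgeR.

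The 9-month groups also differed in cell and fiber markers. All 4 slow fiber markers were higher in TSCmKO (summed level 88.5 to 128 TPM in 9mCON, 445 to 1499 TPM in 9mTSCmKO), 4 of 7 fast fiber, 4 of 6 tendon, 2 of 4 endothelial and 1 of 6 Schwann cell markers were lower, 1 of 5 macrophage markers was higher and 1 lower, and of 8 adipocyte markers Adipoq (log2 fold change -1.84) and Lep (-3.14) were lower. Of the 8 adipocyte markers, 7 had a log2 fold change below 0 and 1 above it, with a median of -1.23. The summed adipocyte level was 408 to 995 TPM in 9mCON and 430.4 to 1299.9 TPM in 9mTSCmKO. In 9mTSCmKO most of this sum was Fabp4, and 0 of the 8 markers were at 0 throughout a group. The part of all these cell and fiber markers in the results for the members was not tested, beyond a fit with the adipocyte marker level as a term. In that fit 10 members were called, the 9 above and Scd1. Without the term Scd1 had -0.10 ± 0.54 (SE), adjusted p = 0.907, and with it the log2 fold change was 0.78 and the adjusted p = 0.0151, in the other direction.

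An interaction term compared the genotype effects of the 2 ages, and it called 3 of the 34 members and 4.94% of all genes. Sc5d was higher in TSCmKO at 3 months and not at 9 months, where it was at 35.4, 40.5, 42.2, 41.3 and 41.3 CPM in 9mCON and 33.7, 43.4, 39.7, 44.8 and 37.9 CPM in 9mTSCmKO. The difference of the effects was -0.48 ± 0.13 (SE), adjusted p = 0.0287. The call was lost without any 1 of 3mCON replicate 3, 3mTSCmKO replicates 1 and 3, 9mCON replicates 3 and 5, 9mTSCmKO replicate 1 (log2 fold change -0.38, adjusted p = 0.0772 without 3mTSCmKO replicate 1, the highest p of these). For Acss2, which differed from the controls at 9 months, the difference was 0.61 ± 0.18 (SE), adjusted p = 0.0403. The call was lost as well without any 1 of 3mCON replicates 1, 2 and 3, 3mTSCmKO replicates 1, 2, 3 and 5, 9mCON replicates 1, 2, 3 and 4, 9mTSCmKO replicates 2, 3 and 4 (log2 fold change 0.52, adjusted p = 0.101 without 3mCON replicate 3, the highest p of these). For Fads2 it was -1.50 ± 0.46 (SE), adjusted p = 0.0498, at the edge of the threshold. This one was lost without any 1 of 3mCON replicates 2, 3, 4 and 5, 3mTSCmKO replicates 1, 2 and 3, 9mCON replicates 3, 4 and 5, 9mTSCmKO replicates 3, 4 and 5 (log2 fold change -1.27, adjusted p = 0.139 without 9mCON replicate 5, the highest p of these). Mvd was called at 9 months and not at 3 months, but the difference between the ages, 0.82 ± 0.31 (SE), adjusted p = 0.128, did not pass the test, nor did that of Srebf1, -0.51 ± 0.22 (SE), adjusted p = 0.178. Among the markers, Acta1 of the fast fiber list was called as well (-0.66, adjusted p = 0.0498), and its part was not tested. The count of 3 became 0 without 3mCON replicate 3, 3mTSCmKO replicate 1 or 3, or 9mCON replicate 3, and 0 in a fit of the 4 vehicle groups alone.

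**Figure D2:**
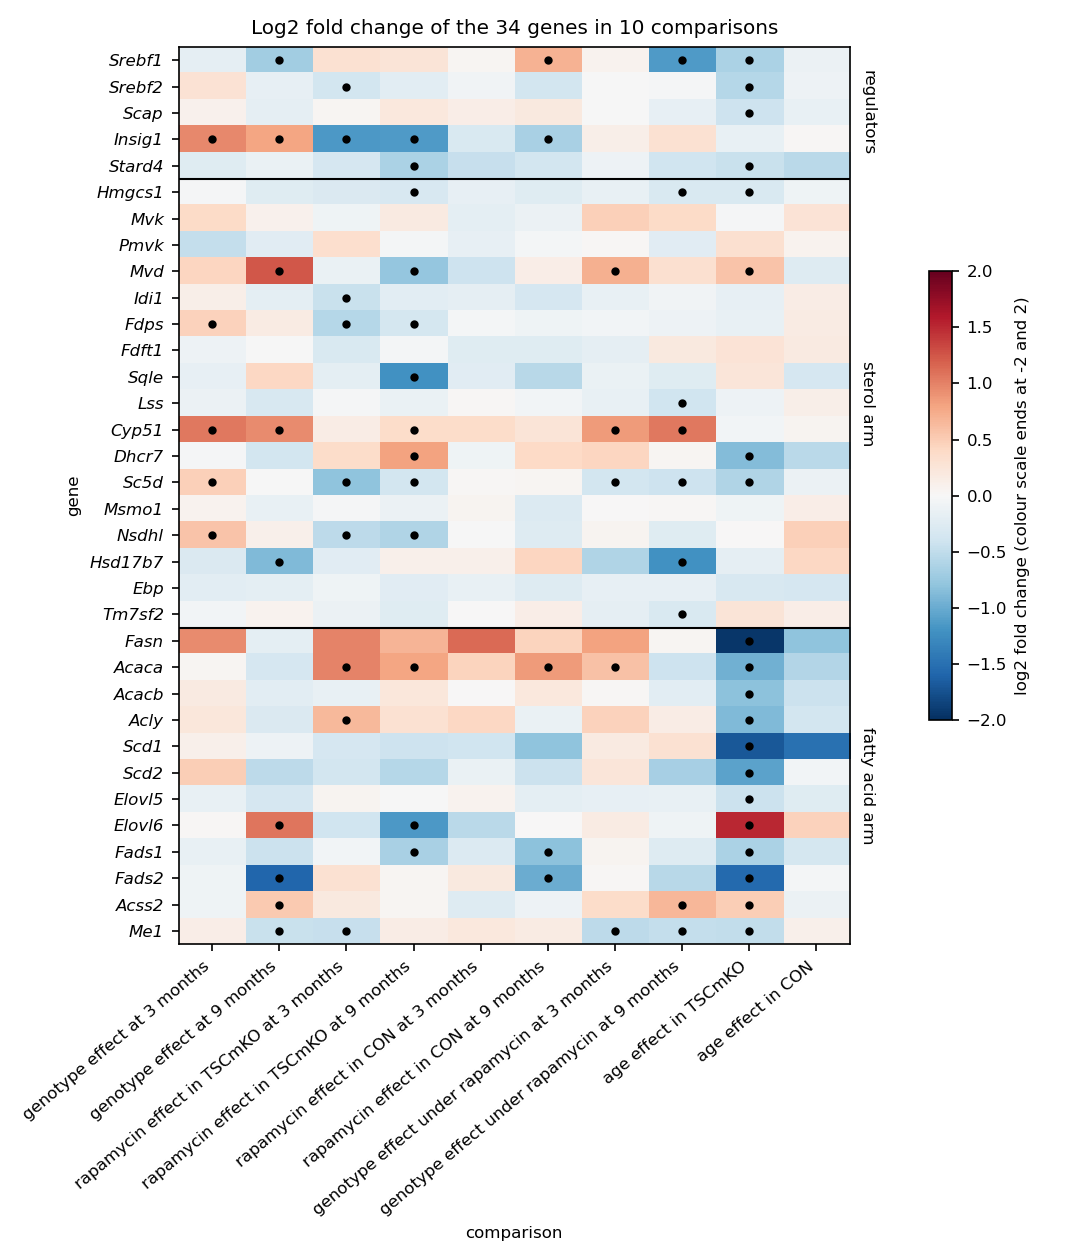
Log2 fold change (color) of the 34 genes (y axis) in the 10 pairwise comparisons (x axis), with a dot where the adjusted p was under 0.05. The column of the age effect in TSCmKO holds 20 dots, 12 of them in the fatty acid arm, while the columns of rapamycin in CON at 3 months and of age in CON hold 0.

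Rapamycin was given to ask which of these levels depend on ongoing mTORC1 activity. In 3-month-old TSCmKO muscle, 2 members were higher and 7 lower after 3 days of rapamycin, against 10.6% and 13% of all genes. Insig1, Srebf2, Sc5d, Fdps, Nsdhl, Idi1 and Me1 fell, and Acaca and Acly rose. All 4 called sterol arm genes fell, and the 3 called fatty acid genes were divided. The genotype comparison above used the same 3mTSCmKO libraries, so a rise there and a fall here are not independent of each other.

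Insig1 under rapamycin was at 16.4, 11.9, 17.9, 13.6 and 14.4 CPM, below each untreated TSCmKO library and with 3 of the 5 also below each 3mCON library. For Insig1 the log2 fold change was -1.14 ± 0.17 (SE), adjusted p = 3.65e-06. Srebf2, the gene of the factor that drives sterol synthesis, was at 19.3, 25.6, 24.1, 20.1 and 23.1 CPM in 3mTSCmKO and 19.1, 18.99, 12.6, 17.3 and 18.8 CPM under rapamycin. The groups were separated by the narrow gap between 19.3 and 19.1 CPM. The Srebf2 log2 fold change of -0.37 ± 0.14 (SE), adjusted p = 0.0476, was lost without any 1 of 3mTSCmKO replicates 2, 3 and 5, 3mTSCmKO+RM replicates 2, 3, 4 and 5 (log2 fold change -0.28, adjusted p = 0.171 without 3mTSCmKO+RM replicate 3, the highest p of these). It was also lost with upper-quartile scaling, without a filter on low counts, and with insert size or adipocyte level as a term.

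Sc5d under rapamycin was at 37.5, 36.7, 34.3, 30.97 and 33.1 CPM, lower than each 3mTSCmKO library and also than each 3mCON library. The Sc5d log2 fold change of -0.80 ± 0.10 (SE), adjusted p = 4.27e-08, had the smallest p among the members in this comparison. Fdps was at 16.4, 17.8, 13.4, 14.8 and 13.7 CPM and Nsdhl at 3.99, 3.696, 3.18, 3.85 and 4.03 CPM under rapamycin. Neither group overlapped with the untreated TSCmKO libraries. The log2 fold changes were -0.56 ± 0.13 (SE), adjusted p = 0.00106, for Fdps and -0.53 ± 0.14 (SE), adjusted p = 0.00572, for Nsdhl. Idi1, the isomerase that precedes Fdps, was at 15.5, 14.3, 14.6, 13.9 and 14.3 CPM in 3mTSCmKO and 13.95, 11.5, 9.38, 9.58 and 8.89 CPM under rapamycin. Treated replicate 1 lay just above the lowest untreated library and the other 4 below all of them. For Idi1 the log2 fold change was -0.44 ± 0.14 (SE), adjusted p = 0.0146. Cyp51, which had the largest rise with genotype, did not fall, at 15.4, 13.4, 15.1, 13.5 and 13.6 CPM and a log2 difference of 0.16 ± 0.13 (SE), adjusted p = 0.425.

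Acaca, the acetyl-CoA carboxylase that commits carbon to fatty acids, was at 33.9, 31.9, 37.98, 35.5 and 24.6 CPM in 3mTSCmKO and 48.9, 48.9, 63.4, 60.3 and 106 CPM under rapamycin. Each treated library was higher than each untreated one, with replicate 5 far above the rest. For Acaca the log2 fold change was 0.997 ± 0.19 (SE), adjusted p = 9.12e-05. Acly, which makes cytosolic acetyl-CoA from citrate, was at 23.5, 15.1, 23.3, 27.1 and 16.2 CPM in 3mTSCmKO and 25.2, 21.3, 23.8, 38.7 and 56.5 CPM under rapamycin. The groups overlapped, and replicate 5 was again the highest treated library. The Acly log2 fold change of 0.65 ± 0.22 (SE), adjusted p = 0.0279, was lost without any 1 of 3mTSCmKO replicates 2 and 5, 3mTSCmKO+RM replicates 4 and 5 (log2 fold change 0.37, adjusted p = 0.222 without 3mTSCmKO+RM replicate 5, the highest p of these). Me1 was at 515, 512, 452, 401 and 416 CPM in 3mTSCmKO and 363, 283, 334, 313 and 379 CPM under rapamycin, with no overlap. For Me1 the log2 fold change was -0.46 ± 0.13 (SE), adjusted p = 0.00742. Scaling by upper quartile in place of TMM called 2 members higher and 6 lower, and over all genes it moved the share of higher calls from 44.9% to 55.7%. Among the markers, 3 of 7 fast fiber genes were higher and 1 lower under rapamycin in this comparison, and 1 of 6 tendon genes (Scx, 2.04) and 1 of 5 macrophage genes (Cd68, 1.24) were higher. Their part was not tested.

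In 9-month-old TSCmKO muscle, rapamycin was followed by 3 higher and 10 lower members, against 15.8% and 16.8% of all genes. Insig1, Stard4, Nsdhl, Sc5d, Sqle, Mvd, Hmgcs1, Fdps, Elovl6 and Fads1 fell, and Acaca, Dhcr7 and Cyp51 rose. The sterol arm held 6 of the falls and 2 of the rises.

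Insig1 was at 8.84, 15.6, 9.57, 16.3 and 17.2 CPM under rapamycin, below each untreated TSCmKO library. For Insig1 the log2 fold change was -1.13 ± 0.17 (SE), adjusted p = 3.95e-06. Stard4, a carrier of sterol between membranes, was at 6.398, 3.77, 3.63, 4.62 and 4.8996 CPM in 9mTSCmKO and 1.64, 2.48, 4.08, 3.03 and 3.66 CPM under rapamycin. Treated replicates 3 and 5 lay within the untreated range. For Stard4 the log2 fold change was -0.64 ± 0.18 (SE), adjusted p = 0.00612. This call was lost in a fit of the TSCmKO groups at 9 months alone (log2 fold change -0.65, adjusted p = 0.0953).

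Nsdhl was at 4.94, 5.06, 6.59, 4.91 and 5.5996 CPM in 9mTSCmKO and 3.52, 3.57, 4.46, 3.03 and 3.29 CPM under rapamycin. Sc5d was at 29.2, 31.1, 31.3, 30.3 and 32.9 CPM under rapamycin. For both genes each treated library was lower than each untreated one. The log2 fold changes were -0.60 ± 0.15 (SE), adjusted p = 0.00176, for Nsdhl and -0.37 ± 0.10 (SE), adjusted p = 0.00334, for Sc5d. Sqle was at 1.72, 1.59, 0.949, 1.39 and 1.44 CPM in 9mTSCmKO and 0.313, 0.576, 0.598, 0.551 and 0.976 CPM under rapamycin. At these low levels the groups overlapped through untreated replicate 3 and treated replicate 5. The Sqle log2 fold change of -1.21 ± 0.32 (SE), adjusted p = 0.0037, was the largest fall in the arm. Dhcr7, the reductase that makes cholesterol in the last step, rose from 1.35, 1.53, 2.904, 1.85 and 1.97 CPM in 9mTSCmKO to 4.38, 3.28, 2.88, 2.895 and 3.41 CPM under rapamycin. Untreated replicate 3 reached the lower edge of the treated range. For Dhcr7 the log2 fold change was 0.80 ± 0.22 (SE), adjusted p = 0.00509. Mvd fell without overlap, to 2.74, 3.98, 3.05, 2.41 and 3.72 CPM, a log2 difference of -0.78 ± 0.22 (SE), adjusted p = 0.0057.

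Smaller changes in the arm lay near the threshold, and their calls were lost in several fits that left out 1 library and in a fit of the compared groups alone. Hmgcs1, the synthase that opens the mevalonate pathway and carries the SRE shown above, had a log2 difference of -0.32 ± 0.11 (SE), adjusted p = 0.0267, which was lost without any 1 of 9mTSCmKO replicate 5, 9mTSCmKO+RM replicates 1, 3 and 5 (log2 fold change -0.27, adjusted p = 0.0753 without 9mTSCmKO replicate 5, the highest p of these). For Fdps it was -0.35 ± 0.13 (SE), adjusted p = 0.0361, lost without any 1 of 9mTSCmKO replicates 2, 3 and 5, 9mTSCmKO+RM replicates 2, 3, 4 and 5 (log2 fold change -0.25, adjusted p = 0.152 without 9mTSCmKO replicate 3, the highest p of these). Cyp51 was at 12.4, 17.1, 17.5, 17.4 and 15.001 CPM under rapamycin, and its log2 fold change of 0.37 ± 0.13 (SE), adjusted p = 0.0269, was lost without any 1 of 9mTSCmKO replicates 3, 4 and 5, 9mTSCmKO+RM replicates 2, 3 and 4 (log2 fold change 0.29, adjusted p = 0.0948 without 9mTSCmKO replicate 5, the highest p of these).

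Of the fatty acid arm at 9 months, Acaca was at 15.4, 20.9, 13.96, 19.05 and 14.7 CPM in 9mTSCmKO and 22.7, 29.1, 34.96, 31.5 and 26.5 CPM under rapamycin. The groups did not overlap, and the log2 fold change was 0.79 ± 0.19 (SE), adjusted p = 0.00145. Elovl6 was at 15.9, 15.3, 15.7, 20.95 and 19.9 CPM under rapamycin, and its log2 fold change of -1.15 ± 0.34 (SE), adjusted p = 0.00945, was lost without 9mTSCmKO replicate 1 (log2 fold change -0.42, adjusted p = 0.243 without it). Fads1, the desaturase that follows Fads2, was at 12.6, 6.77, 5.75, 5.48 and 7.83 CPM in 9mTSCmKO and 4.69, 3.3999, 6.04, 5.72 and 4.82 CPM under rapamycin. Untreated replicate 1 stood well above the other libraries, and the groups overlapped. The Fads1 log2 fold change of -0.64 ± 0.21 (SE), adjusted p = 0.0199, was lost without any 1 of 9mTSCmKO replicate 1, 9mTSCmKO+RM replicate 2 (log2 fold change -0.41, adjusted p = 0.133 without 9mTSCmKO replicate 1, the highest p of these). With a fit of the TSCmKO groups at 9 months alone, 7 members were called in place of 13, while the calls over all genes fell from 4410 to 2544. Of the fast fiber markers, 4 of 7 were higher and 1 lower under rapamycin, and of the slow fiber markers 1 of 4 was lower. In the same comparison 1 of 6 tendon markers was lower, 1 of 4 endothelial markers was higher and 1 lower, and Top2a, the gene of the proliferation list with enough counts to be tested, was lower (-1.47, adjusted p = 0.0205). The part of these markers was not tested.

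**Figure D3:**
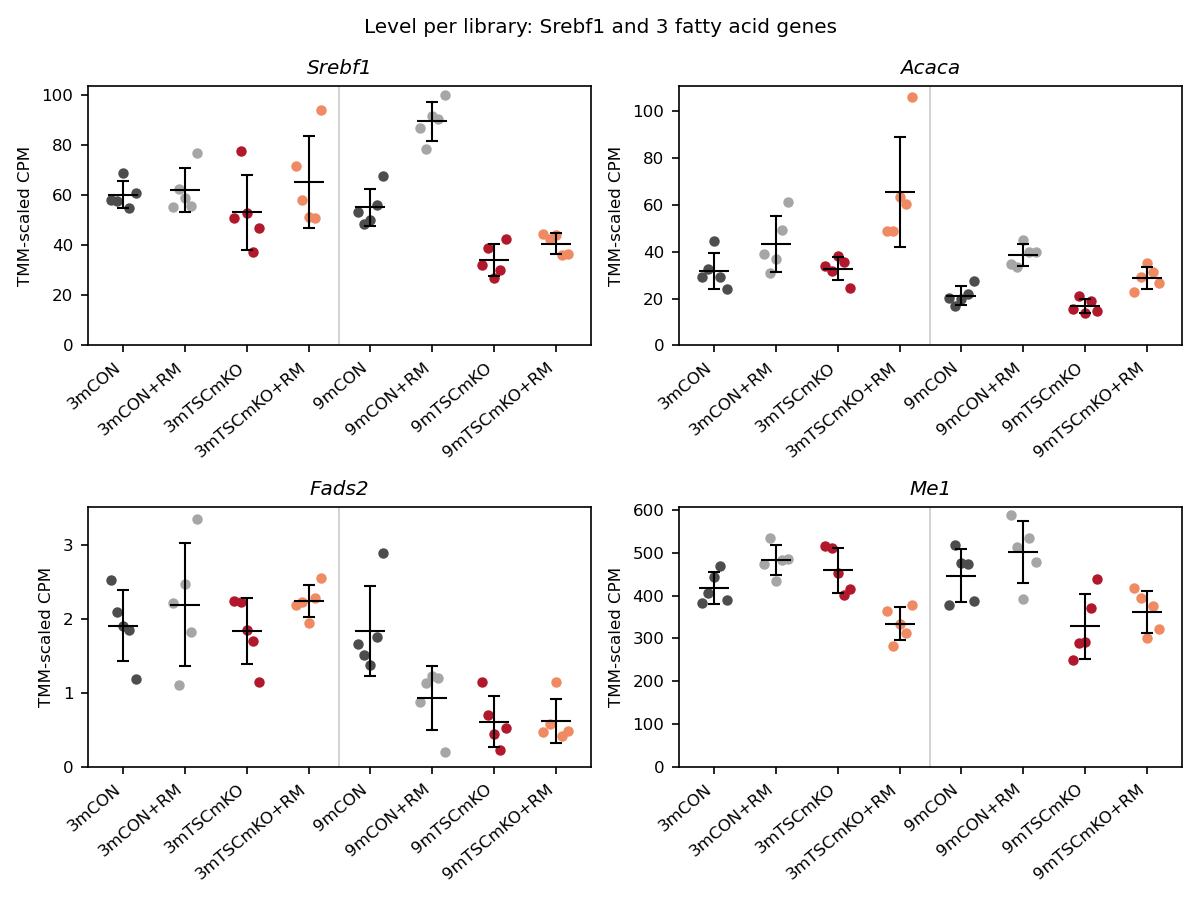
TMM-scaled CPM (y axis) of Srebf1, Acaca, Fads2 and Me1 in each library of the 8 groups (x axis), with the group mean and SD as bars, n = 5. Acaca was higher in the rapamycin group than in its vehicle group without overlap in 9mCON (33.5 to 44.9 against 16.7 to 27.5 CPM) and in TSCmKO at both ages.

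In control muscle, rapamycin met the mTORC1 activity of a normal fiber. At 9 months, 2 members were higher and 3 lower, against 5.03% and 6.82% of all genes, and 0 of the 17 sterol arm genes passed the test. Srebf1 and Acaca rose, and Insig1, Fads1 and Fads2 fell.

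Srebf1 was at 86.9, 78.5, 91.3, 90.2 and 99.8 CPM in 9mCON+RM, each library above each vehicle control, with a log2 difference of 0.70 ± 0.15 (SE), adjusted p = 0.00212. Acaca was at 20.1, 16.7, 19.9, 21.9 and 27.5 CPM in 9mCON and 34.7, 33.5, 44.9, 39.7 and 39.8 CPM in 9mCON+RM, also without overlap. For Acaca the log2 fold change was 0.86 ± 0.19 (SE), adjusted p = 0.0022. Insig1 was at 9.12, 10.7, 8.61, 12.98 and 13.2 CPM in 9mCON+RM, overlapping with the lowest vehicle library. The Insig1 log2 fold change of -0.65 ± 0.18 (SE), adjusted p = 0.0136, was lost without 9mCON replicate 2 (log2 fold change -0.48, adjusted p = 0.0655 without it). It was also lost in a fit of the compared groups alone (adjusted p = 0.0796). Fads1 was at 11.2, 7.92, 9.83, 9.39 and 13.6 CPM in 9mCON and 6.28, 5.399, 7.67, 6.88 and 3.44 CPM in 9mCON+RM. The ranges did not overlap, and the log2 fold change was -0.82 ± 0.21 (SE), adjusted p = 0.00891. Fads2 was at 0.878, 1.13, 1.23, 1.203 and 0.202 CPM in 9mCON+RM, below each vehicle control. The Fads2 log2 fold change of -0.999 ± 0.34 (SE), adjusted p = 0.0473, was lost without any 1 of 9mCON replicates 1, 4 and 5, 9mCON+RM replicates 1, 2 and 5 (log2 fold change -0.77, adjusted p = 0.165 without 9mCON replicate 5, the highest p of these). This Fads2 call was also lost without a filter on low counts and in a fit of the compared groups alone. It was lost too with the replicate number (adjusted p = 0.0551) or the adipocyte level (adjusted p = 0.0581) as a term. Cell markers differed between these groups as well. Of the tendon markers 5 of 6 were lower under rapamycin (summed level 57.4 to 382 TPM against 23.01 to 53.3 TPM), and of the macrophage markers 4 of 5 (41.3 to 122 against 11.2 to 37.2 TPM), and 1 of 7 fast fiber markers was higher. Their part in the results was not tested. No adipocyte marker passed the test here.

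At 3 months, rapamycin in CON changed 0 members by edgeR, with 4 at an unadjusted p under 0.05, and 0 by DESeq2. Over all genes, 0.362% were higher and 0.318% lower at the adjusted threshold, and no share at the unadjusted threshold is given here. The smallest adjusted p was 0.295, for Stard4 (log2 fold change -0.46). Insig1 was at 13.1, 11.6, 14.5, 12.9 and 15.9 CPM in 3mCON+RM, a log2 difference of -0.30 ± 0.18 (SE), adjusted p = 0.665. Fasn, with the largest log2 fold change of 1.13 ± 0.46 (SE), adjusted p = 0.379, ranged from 22.03 to 103 CPM among the 5 treated libraries.

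The difference of the rapamycin effect between genotypes was tested directly. At 3 months the interaction called 3 members (3.45% of all genes), and all 3 were lower. This means a more negative log2 fold change with rapamycin in TSCmKO than in CON. As log2 ratios of mean CPM, Me1 had -0.46 in TSCmKO and 0.21 in CON. Sc5d had a difference of -0.83 ± 0.14 (SE), adjusted p = 0.000162. It fell in TSCmKO, while 3mCON+RM libraries, at 42.4, 44.8, 45.7, 41.3 and 47.2 CPM, lay within the range of 3mCON. This call kept its side of the threshold in each of the 20 fits that left out 1 library and in the 8 other settings. For Me1 the difference was -0.66 ± 0.18 (SE), adjusted p = 0.0287, lost without any 1 of 3mCON replicates 1 and 5, 3mCON+RM replicate 2, 3mTSCmKO replicates 1 and 2, 3mTSCmKO+RM replicates 2 and 4 (log2 fold change -0.61, adjusted p = 0.0643 without 3mTSCmKO+RM replicate 2, the highest p of these). For Insig1 it was -0.84 ± 0.25 (SE), adjusted p = 0.0455, lost without any 1 of 3mCON replicates 1, 2, 4 and 5, 3mCON+RM replicates 1, 3, 4 and 5, 3mTSCmKO replicates 1, 2, 3 and 4, 3mTSCmKO+RM replicates 2, 4 and 5 (log2 fold change -0.77, adjusted p = 0.0995 without 3mTSCmKO+RM replicate 2, the highest p of these). The tendon marker Scx was called in this interaction too (log2 fold change with rapamycin 2.04 in TSCmKO and 0.09 in CON, adjusted p = 0.00367), and its part was not tested. At 9 months 5 members had an unadjusted p under 0.05 for the interaction, a threshold at which no share of all genes is given here. The interaction called 0 members by edgeR and 1 by DESeq2 (Sc5d), while 4.87% of all genes were called. Without 9mCON replicate 1 or 9mTSCmKO replicate 1 the count became 1. By edgeR Sc5d had -0.41 ± 0.14 (SE), adjusted p = 0.0722, and Mvd -0.92 ± 0.32 (SE), adjusted p = 0.085. Acaca, which rose with rapamycin in TSCmKO at both ages and in CON at 9 months, had an interaction of 0.55 ± 0.26 (SE), adjusted p = 0.305, in the younger mice and of -0.07 ± 0.27 (SE), adjusted p = 0.912, in the older mice.

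The genotypes were also compared with rapamycin present in both. At 3 months, 3 members were higher and 2 lower in TSCmKO+RM than in CON+RM, against 5.67% and 4.36% of all genes. Cyp51, Mvd and Acaca were higher, and Sc5d and Me1 lower. Cyp51 was at 8.24, 8.11, 7.42, 6.64 and 9.22 CPM in 3mCON+RM, below each 3mTSCmKO+RM library, and the log2 fold change was 0.84 ± 0.13 (SE), adjusted p = 2.04e-05. Sc5d, which was higher in TSCmKO without rapamycin, was lower with it, and the ranges (41.3 to 47.2 CPM in 3mCON+RM, 30.97 to 37.5 CPM in 3mTSCmKO+RM) did not overlap. For Sc5d the log2 fold change was -0.36 ± 0.10 (SE), adjusted p = 0.0105. Mvd was at 1.53, 2.49, 1.798, 2.14 and 2.19 CPM in 3mCON+RM and 3.11, 4.12, 2.696, 3.26 and 3.74 CPM in 3mTSCmKO+RM. Although these ranges did not overlap, the log2 fold change of 0.72 ± 0.23 (SE), adjusted p = 0.0357, was lost without any 1 of 3mCON+RM replicates 1, 3, 4 and 5, 3mTSCmKO+RM replicates 2, 4 and 5 (log2 fold change 0.64, adjusted p = 0.102 without 3mCON+RM replicate 1, the highest p of these). Me1 was at 474, 534, 435, 483 and 487 CPM in 3mCON+RM, above each 3mTSCmKO+RM library, with a log2 difference of -0.53 ± 0.13 (SE), adjusted p = 0.00476. Acaca was at 38.997, 30.8, 36.9, 49.1 and 61.1 CPM in 3mCON+RM, which overlapped with 3mTSCmKO+RM. The Acaca log2 fold change of 0.59 ± 0.18 (SE), adjusted p = 0.0336, was lost without any 1 of 3mCON+RM replicates 1, 2 and 3, 3mTSCmKO+RM replicate 5 (log2 fold change 0.36, adjusted p = 0.241 without 3mTSCmKO+RM replicate 5, the highest p of these). Without 3mCON+RM replicate 3 or 3mTSCmKO+RM replicate 5 the count of 5 became 3. Among the markers 1 of 6 tendon genes, Scx, was higher (2.02 to 5.13 CPM in 3mCON+RM, 4.69 to 7.56 CPM in 3mTSCmKO+RM, adjusted p = 0.0158), and its part was not tested. Insig1 did not pass the test under rapamycin, with a log2 difference of 0.12 ± 0.18 (SE), adjusted p = 0.783.

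At 9 months under rapamycin, 2 members were higher and 7 lower in TSCmKO, against 11.3% and 9.33% of all genes. Cyp51 and Acss2 were higher, and Srebf1, Hsd17b7, Sc5d, Me1, Lss, Tm7sf2 and Hmgcs1 were lower. Cyp51 was at 6.89, 8.69, 5.86, 8.34 and 8.302 CPM in 9mCON+RM, below each 9mTSCmKO+RM library, with a log2 difference of 1.06 ± 0.14 (SE), adjusted p = 1.55e-07. Srebf1 was at 44.6, 42.4, 43.8, 35.9 and 36.3 CPM in 9mTSCmKO+RM, far below the 78.5 to 99.8 CPM of 9mCON+RM. For Srebf1 the log2 fold change was -1.14 ± 0.15 (SE), adjusted p = 4.91e-07. Hsd17b7 was at 19.99, 18.1, 16.5, 22.8 and 21.5 CPM in 9mCON+RM and 8.22, 11.6, 7.83, 8.203 and 6.65 CPM in 9mTSCmKO+RM. The ranges were apart, and the log2 fold change was -1.21 ± 0.21 (SE), adjusted p = 2.37e-05. Sc5d was at 40.7, 42.3, 37.7, 43.5 and 42.05 CPM in 9mCON+RM, above each TSCmKO library under rapamycin, with -0.41 ± 0.10 (SE), adjusted p = 0.00145, as log2 fold change. Acss2 was at 30.6, 37.9, 34.01, 31.5 and 34.02 CPM in 9mCON+RM and 50.1, 54.4, 61.01, 50.4 and 50.4 CPM in 9mTSCmKO+RM. No libraries overlapped, and the log2 fold change was 0.66 ± 0.13 (SE), adjusted p = 0.00015. Me1 was at 589, 515, 392, 536 and 478 CPM against 418, 395, 301, 376 and 322 CPM, with overlap and a log2 difference of -0.47 ± 0.13 (SE), adjusted p = 0.00655. Lss, the cyclase that forms lanosterol, was at 6.42, 7.301, 8.03, 6.36 and 6.75 CPM against 4.38, 5.42, 5.98, 4.89 and 5.67 CPM, without overlap. Its log2 fold change of -0.40 ± 0.14 (SE), adjusted p = 0.0389, was lost without any 1 of 9mCON+RM replicates 2, 3 and 5, 9mTSCmKO+RM replicates 1, 2 and 4 (log2 fold change -0.33, adjusted p = 0.124 without 9mCON+RM replicate 3, the highest p of these). Tm7sf2, a sterol reductase, had -0.30 ± 0.11 (SE), adjusted p = 0.0408, lost without any 1 of 9mCON+RM replicates 1, 3, 4 and 5, 9mTSCmKO+RM replicates 2, 4 and 5 (log2 fold change -0.26, adjusted p = 0.123 without 9mTSCmKO+RM replicate 4, the highest p of these). Hmgcs1 had -0.31 ± 0.11 (SE), adjusted p = 0.0457, lost without any 1 of 9mCON+RM replicates 1, 2, 4 and 5, 9mTSCmKO+RM replicates 1, 3, 4 and 5 (log2 fold change -0.25, adjusted p = 0.126 without 9mTSCmKO+RM replicate 1, the highest p of these). Of the 31-base stretches of Tm7sf2 transcripts, 12.5% also occur in other genes, mainly its neighbor Vps51, so its level is uncertain. Of the markers in this comparison, 2 of 4 slow fiber genes were higher (summed level 69.7 to 329 TPM in 9mCON+RM, 298 to 637 TPM in 9mTSCmKO+RM), as was 1 of 5 macrophage genes, and 2 of 7 fast fiber and 1 of 4 endothelial genes were lower. Their part was not tested.

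The last comparison followed age within each genotype. In TSCmKO, 3 members were higher and 17 lower at 9 than at 3 months, while 19.1% of all genes were higher and 18.3% lower. All 12 fatty acid genes passed the test, 2 higher and 10 lower, with a median log2 fold change of -0.86, against 4 of 17 sterol arm genes, 1 higher and 3 lower, with a median of -0.08. The median over all genes tested was 0.00, and 4 of 5 regulators were lower. In CON, 7 members had an unadjusted p under 0.05, a threshold at which no share of all genes is given here. Of the members in CON, 0 passed the test by edgeR and 1 by DESeq2 (Stard4), while 0.679% of all genes were higher and 0.34% lower. Without 9mCON replicate 5 the count in CON became 3. The CON medians were -0.29 for the fatty acid arm, with 10 genes below 0 and 2 above, and 0.11 for the sterol arm. The interaction of genotype and age given above tests whether the effect of age differed between the genotypes. It called 2 of the 12 fatty acid genes, Acss2 (higher) and Fads2 (lower), and 1 of the 17 sterol arm genes. The calls in TSCmKO beside 0 in CON thus do not by themselves show a difference between the genotypes.

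Of the regulators, Srebf1 was at 50.9, 77.4, 52.7, 37.1 and 46.999 CPM in 3mTSCmKO, and the 9mTSCmKO range given above overlapped with its lowest library. For Srebf1 the log2 fold change was -0.63 ± 0.15 (SE), adjusted p = 0.00149. Srebf2 was at 15.3, 15.9, 12.6, 14.9 and 17.02 CPM in 9mTSCmKO, below each 3mTSCmKO library, with a log2 difference of -0.57 ± 0.14 (SE), adjusted p = 0.00179. Scap was at 23.8, 26.3, 25.3, 24.4 and 27.4 CPM in 3mTSCmKO and 13.7, 23.4, 16.5, 20.5 and 21.5 CPM in 9mTSCmKO. The ranges were separated by less than the spread within either group. The Scap log2 fold change of -0.41 ± 0.13 (SE), adjusted p = 0.0137, was lost without 9mTSCmKO replicate 1 (log2 fold change -0.31, adjusted p = 0.0595 without it). It was also lost in a fit of the compared groups alone. As a log2 ratio of mean TPM the Scap change was -0.87, against -0.41 by mean CPM, and in CON -0.55 against -0.15. The median gap between these measures over all genes was -0.02 in TSCmKO and -0.11 in CON. In TSCmKO, Srebf1 had -0.89 by TPM and -0.64 by CPM, and Elovl6 had 1.30 and 1.52. Stard4 was at 7.51, 5.81, 7.04, 6.59 and 4.93 CPM in 3mTSCmKO, with overlap, and its log2 fold change of -0.45 ± 0.17 (SE), adjusted p = 0.0383, was lost without any 1 of 3mTSCmKO replicates 1, 3 and 4, 9mTSCmKO replicates 2, 3 and 4 (log2 fold change -0.37, adjusted p = 0.115 without 9mTSCmKO replicate 3, the highest p of these). Insig1 did not pass the test, with -0.15 ± 0.17 (SE), adjusted p = 0.522.

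In the sterol arm, Sc5d fell from the 46.1 to 75.3 CPM of 3mTSCmKO to the 33.7 to 44.8 CPM of 9mTSCmKO without overlap, a log2 difference of -0.60 ± 0.10 (SE), adjusted p = 1.01e-05. Dhcr7 was at 2.899, 3.59, 4.27, 2.72 and 4.14 CPM in 3mTSCmKO, with 9mTSCmKO replicate 3 inside that range and the other 4 below it. For Dhcr7 the log2 fold change was -0.87 ± 0.22 (SE), adjusted p = 0.00202. Hmgcs1 was at 59.8, 50.95, 61.3, 56.6 and 50.1 CPM in 3mTSCmKO and 34.7, 50.1, 40.4, 49.9 and 51.3 CPM in 9mTSCmKO. The groups overlapped, and the log2 fold change of -0.30 ± 0.11 (SE), adjusted p = 0.0309, was lost without any 1 of 3mTSCmKO replicates 1 and 3, 9mTSCmKO replicates 1 and 3 (log2 fold change -0.22, adjusted p = 0.121 without 9mTSCmKO replicate 1, the highest p of these). Mvd was the gene that rose, from 2.899, 4.12, 3.39, 4.45 and 3.56 CPM in 3mTSCmKO. Its log2 fold change of 0.56 ± 0.21 (SE), adjusted p = 0.0349, was lost without any 1 of 3mTSCmKO replicates 1, 3 and 5, 9mTSCmKO replicates 2 and 3 (log2 fold change 0.45, adjusted p = 0.119 without 9mTSCmKO replicate 3, the highest p of these).

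In the fatty acid arm, Acaca fell from 24.6 to 37.98 CPM in 3mTSCmKO to 13.96 to 20.9 CPM in 9mTSCmKO, a log2 difference of -0.96 ± 0.19 (SE), adjusted p = 0.000146. Acacb was at 398, 529, 419.7, 418 and 491 CPM in 3mTSCmKO and 191, 356, 195, 282 and 249 CPM in 9mTSCmKO. Neither gene overlapped between ages. The log2 fold change of Acacb was -0.83 ± 0.18 (SE), adjusted p = 0.000567. Fads2 was at 2.24, 2.22, 1.85, 1.696 and 1.15 CPM in 3mTSCmKO, where the lowest library lay just above the highest of 9mTSCmKO. For Fads2 the log2 fold change was -1.55 ± 0.34 (SE), adjusted p = 0.000579. Elovl6 was at 11.3, 10.3, 15.8, 19.4 and 10.9 CPM in 3mTSCmKO, all below the lowest 9mTSCmKO library. Its log2 fold change of 1.51 ± 0.34 (SE), adjusted p = 0.000875, dropped to 0.77 with an adjusted p = 0.0237 without 9mTSCmKO replicate 1.

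The largest falls were those of Fasn, at 12.02, 22.1, 12.3, 8.43 and 13.9 CPM in 9mTSCmKO and thus below each 3mTSCmKO library, with -1.95 ± 0.47 (SE), adjusted p = 0.00175, and of Scd1. Scd1, the desaturase that makes oleate, was at 211, 159, 227, 447 and 69.6 CPM in 3mTSCmKO and 127, 55.95, 55.6, 45.02 and 61.7 CPM in 9mTSCmKO. Its log2 fold change of -1.69 ± 0.55 (SE), adjusted p = 0.0157, was lost without 3mTSCmKO replicate 4 (log2 fold change -1.28, adjusted p = 0.0697 without it). In 3mCON, Scd1 was at 72.1, 148, 583, 144 and 88.3 CPM, with replicate 3 far above the others, and in 9mCON at 99.2, 55.8, 66.7, 63.4 and 83.4 CPM. In CON the log2 fold change of Scd1 with age was -1.49 ± 0.55 (SE), adjusted p = 0.155, which did not pass the test, and the difference between the genotypes was -0.20 ± 0.76 (SE), adjusted p = 0.921. Scd2 fell by 1.07 on the log2 scale, Acly by 0.89, Me1 by 0.49, Fads1 by 0.63 and Elovl5 by 0.42, and Acss2 rose by 0.50. The call of Fads1 was lost without any 1 of 3mTSCmKO replicate 3, 9mTSCmKO replicate 3 (log2 fold change -0.53, adjusted p = 0.0552 without 3mTSCmKO replicate 3, the highest p of these), and that of Elovl5 without any 1 of 3mTSCmKO replicates 4 and 5, 9mTSCmKO replicates 3 and 4 (log2 fold change -0.30, adjusted p = 0.156 without 3mTSCmKO replicate 4, the highest p of these). Of the 31-base stretches of Scd1 and Scd2 transcripts, 8.01% and 6.24% occur in other genes, mainly Scd3, so their levels are uncertain.

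Markers of several cell and fiber types moved with this comparison. Of the 8 adipocyte markers 6 were lower at 9 months in TSCmKO, from -1.71 (Plin1, adjusted p = 0.0211) through -1.72 (Retn), -2.24 (Cfd), -2.61 (Adipoq) and -2.63 (Cidec) to -2.96 (Lep, adjusted p = 0.0086) on the log2 scale. Fabp4 (0.50) and Pparg (-0.18) did not pass the test. The summed adipocyte level was 359.9 to 1112 TPM in 3mTSCmKO and 430.4 to 1299.9 TPM in 9mTSCmKO, and 0 markers were at 0 in all libraries of either group. Most of this sum was Fabp4, at 498 ± 211 TPM in 3mTSCmKO and 702 ± 360.1 TPM in 9mTSCmKO. In CON the same 6 markers had log2 fold changes from -1.07 (Retn) to -0.75 (Adipoq) and 0 of the 8 passed the test. Of the 6 tendon markers, 5 were lower and 1 higher in TSCmKO, 3 of 4 endothelial and 3 of 7 fast fiber markers were lower, 1 of 5 macrophage markers was higher and 1 lower, 1 of 6 Schwann cell markers was higher, and 2 of 4 slow fiber markers were higher (summed level 28.3 to 741 TPM in 3mTSCmKO, against the 9mTSCmKO range given above). The part of the markers other than those of adipocytes was not tested. With the adipocyte level as a term, 14 of the 20 members were called and Tm7sf2 in addition, with 4886 calls over all genes in place of 5064. Stard4, Fasn, Acly, Scd1, Elovl5 and Fads1 lost their calls (Fasn with log2 fold change -0.89, adjusted p = 0.073, Acly with log2 fold change -0.53, adjusted p = 0.0735, Scd1 with log2 fold change -0.04, adjusted p = 0.918, and Fads1 with log2 fold change -0.38, adjusted p = 0.177). Of these, Stard4 and Elovl5 moved little, to log2 fold change -0.46, adjusted p = 0.0696, and to log2 fold change -0.35, adjusted p = 0.136, while Acaca kept log2 fold change -0.71, adjusted p = 0.00622, and Fads2 log2 fold change -1.58, adjusted p = 0.00192. With insert size as a term, 9 of the 20 members were called and Pmvk in addition, while the calls over all genes fell from 5064 to 1701. Sc5d kept log2 fold change -0.61, adjusted p = 0.00353, and Acaca log2 fold change -1.06, adjusted p = 0.00927, while Acacb, Scd2, Elovl6, Acss2, Me1, Scd1, Srebf1, Srebf2, Scap, Dhcr7 and Hmgcs1 lost their calls. The log2 fold changes that this term moved by more than 1.5 times toward 0 were those of Scap (-0.21), Hmgcs1 (-0.17), Dhcr7 (-0.47), Elovl6 (0.62) and Me1 (-0.27), and those it moved away from 0 were Stard4 (-0.76), Mvd (0.93), Acly (-1.41) and Elovl5 (-0.70). Scd2 (-1.06), Scd1 (-1.94), Acacb (-0.73), Srebf2 (-0.48), Srebf1 (-0.47) and Acss2 (0.43) moved by less than that, although their calls were lost. Insert size was itself mostly larger at 9 months, so its effect and that of age cannot be told apart.

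**Figure D4:**
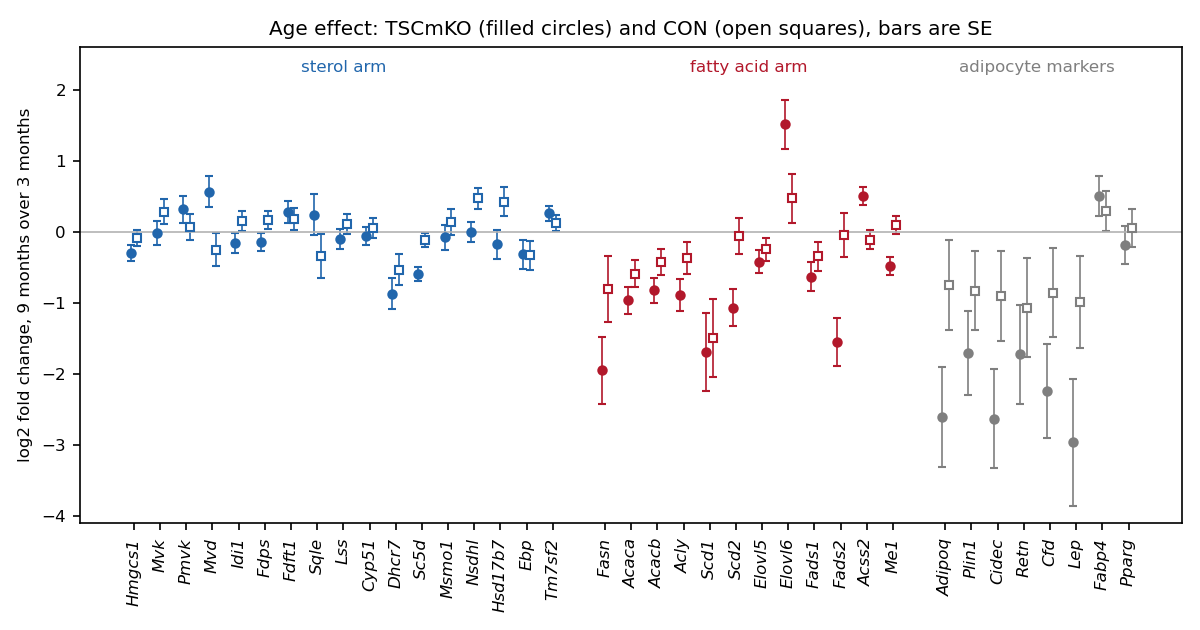
Log2 fold change between 9 and 3 months (y axis, bars are SE) of each sterol arm gene, fatty acid arm gene and adipocyte marker (x axis) in TSCmKO (filled) and CON (open). In TSCmKO 10 of 12 fatty acid genes were lower, as were 6 of 8 adipocyte markers, while the sterol arm scattered around 0 with a median of -0.08. In CON 10 of the 12 fatty acid genes also lay below 0, though 0 passed the test.

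Each library was also summarized per arm, as the mean log2 CPM of the arm minus that of CON of the same age, with no test because the members were chosen with results of these data known. For the sterol arm the values were 0.14, 0.10, 0.21, 0.10 and 0.10 in 3mTSCmKO, each above each 3mCON library (-0.10 to 0.09) although the lowest of the former lay just past the highest of the latter. By gene, 8 of the 17 had a log2 fold change above 0 and 9 below it for genotype at 3 months, with a median of -0.02. Under rapamycin they were 0.08, 0.07, -0.20, -0.08 and -0.10, all below the untreated TSCmKO values. In 9mTSCmKO they were -0.24, 0.08, 0.17, 0.05 and 0.05, overlapping with 9mCON. Replicate 1 was the lowest of that group. In 9mTSCmKO+RM they were -0.08, -0.09, -0.23, -0.19 and -0.18, which overlapped with both vehicle groups of that age. The fatty acid arm varied more within groups, with an SD of 0.27 in 3mCON against 0.07 for the sterol arm. Its values in 3mTSCmKO were 0.21, 0.07, 0.29, 0.44 and -0.21, within the range of 3mCON (-0.22 to 0.47). In 9mTSCmKO they were 0.05, -0.04, -0.48, -0.52 and -0.27, and 2 of them lay below each 9mCON library (-0.30 to 0.25).

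**Figure D5:**
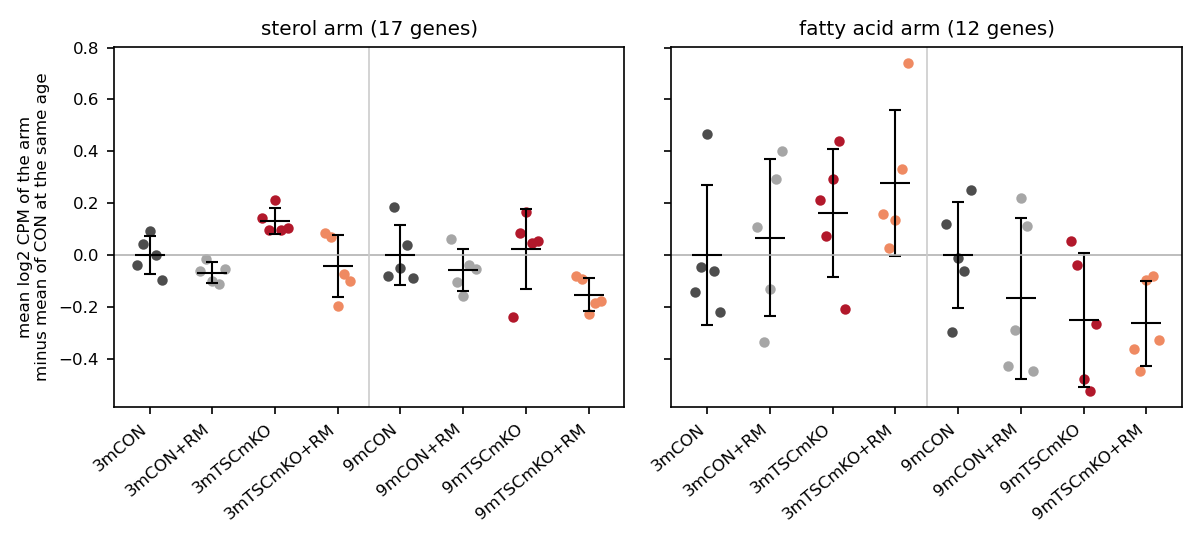
Mean log2 CPM of the 17 sterol arm genes (left) and the 12 fatty acid arm genes (right) in each library, relative to the mean of CON of the same age (y axis), for the 8 groups (x axis) with group mean and SD, n = 5. The 5 libraries of 3mTSCmKO lay between 0.10 and 0.21 in the sterol arm, above 3mCON and 3mTSCmKO+RM, while the groups overlapped in the fatty acid arm.

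Further genes of the pathway, listed by role and not as members, were examined in the same fit. Of 8 other genes of sterol synthesis and handling, 1 was higher in TSCmKO at 3 months, and 2 were higher and 1 lower at 9 months. The shares over all genes were 11.4% higher at 3 months, and 19.1% higher and 18.9% lower at 9 months. The gene at 3 months was Npc1, which exports cholesterol from lysosomes, at 72.8, 114, 98.1, 87.7 and 88.5 CPM in 3mCON, 186, 218, 144, 211 and 173 CPM in 3mTSCmKO and 76.3, 62.3, 83.3, 66.4 and 79.1 CPM in 3mTSCmKO+RM. Its log2 fold change was 1.01 ± 0.19 (SE), adjusted p = 8.72e-05, for genotype and -1.34 ± 0.19 (SE), adjusted p = 1.05e-06, for rapamycin in TSCmKO. The genotype effect of Npc1 differed between the ages by -0.91 ± 0.26 (SE), adjusted p = 0.0358, and the rapamycin effect between the genotypes at 3 months by -1.51 ± 0.26 (SE), adjusted p = 0.000444.

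The liver X receptors (LXRs) sense sterols and drive cholesterol export. Of 6 genes of this group, 2 were lower in TSCmKO at 3 months, and 3 were lower and 1 higher at 9 months, against 8.32% lower at 3 months, and 18.9% lower and 19.1% higher at 9 months over all genes. With rapamycin, 3 of the 6 were higher in TSCmKO at 3 months (10.6% of all genes), 4 were higher and 1 lower in TSCmKO at 9 months (15.8% and 16.8%), 3 were higher in CON at 9 months (5.03%) and 0 were called in CON at 3 months. Abca1, the cholesterol exporter, was at 47.9, 65.2, 49.3, 40.5 and 39.9 CPM in 3mCON and 25.4, 24.2, 28.5, 26.2 and 25.05 CPM in 3mTSCmKO, with a log2 difference of -0.91 ± 0.17 (SE), adjusted p = 0.000119. At 9 months it was at 29.5, 26.4, 35.7, 34.7 and 41.7 CPM in 9mCON and 19.7, 15.7, 9.104, 14.3 and 17.1 CPM in 9mTSCmKO, with -1.15 ± 0.17 (SE), adjusted p = 1.84e-06. Under rapamycin Abca1 rose in TSCmKO at 3 months (1.06, adjusted p = 1.18e-05), in TSCmKO at 9 months (0.93, adjusted p = 7.13e-05) and in CON at 9 months (0.80, adjusted p = 0.00153). Nr1h3, which encodes an LXR, moved in the same directions, with log2 fold changes of -0.45 and -0.49 for genotype at 3 and 9 months, and of 0.75, 0.89 and 0.65 for rapamycin in the same order as for Abca1, each with an adjusted p under 0.05. At 9 months, 1 of the 6 genes lay above 0 for genotype, at 1.02, and it was the gene called higher. For rapamycin in TSCmKO at that age, 1 of the 6 lay below 0, at -0.92, and it was the gene called lower. The interaction of rapamycin and genotype at 9 months called 1 of the 6, as lower, and 4.87% of all genes. Comparisons that share a control or a TSCmKO group are not independent of each other.

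Of 15 other genes of fatty acid and triglyceride synthesis, 4 were higher and 0 lower in TSCmKO at 3 months, and 6 were higher and 0 lower at 9 months, against 11.4% and 8.32% of all genes at 3 months, and 19.1% and 18.9% at 9 months. With rapamycin in TSCmKO, 2 were higher and 3 lower at 3 months (10.6% and 13% of all genes), and 1 was higher and 4 were lower at 9 months (15.8% and 16.8%). With rapamycin in CON, 2 were higher and 2 lower at 9 months (5.03% and 6.82%) and 0 were called at 3 months. Thrsp, a nuclear protein tied to lipogenesis in liver and fat, was at 5.49, 7.28, 11.98, 9.34 and 7.94 CPM in 3mCON and 24.2, 34.1, 39.6, 45.1 and 47.4 CPM in 3mTSCmKO, with a log2 difference of 2.17 ± 0.24 (SE), adjusted p = 1.13e-08. At 9 months it was at 10.6, 7.92, 8.04, 8.52 and 7.64 CPM in 9mCON and 33.7, 42.95, 57.5, 37.9 and 35.6 CPM in 9mTSCmKO, with 2.28 ± 0.24 (SE), adjusted p = 1.49e-09. Rapamycin lowered Thrsp in TSCmKO of the younger (-0.77, adjusted p = 0.0117) and the older mice (-1.09, adjusted p = 0.000386). Aacs, which activates acetoacetate for sterol and fatty acid synthesis, differed between genotypes by 1.87 ± 0.31 (SE), adjusted p = 2.06e-05, in the younger mice and by 1.97 ± 0.32 (SE), adjusted p = 5.01e-06, in the older mice. Hsd17b12, a reductase of fatty acid elongation, had 0.64 ± 0.17 (SE), adjusted p = 0.00416, in the younger mice, and 0.96 ± 0.17 (SE), adjusted p = 1.61e-05, in the older mice. Mid1ip1, a partner of Thrsp, rose with rapamycin in TSCmKO at 3 months (1.21, adjusted p = 3.32e-05) and in CON at 9 months (1.16, adjusted p = 0.000337).

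By edgeR in the fit of all groups with TMM scaling, the 5 members that were not called in any of the 13 comparisons were Mvk, Pmvk, Fdft1, Msmo1 and Ebp, all of the sterol arm. The widest of their log2 fold changes between groups was -0.48, for Pmvk between genotypes at 3 months, and 0.48, for Mvk between genotypes under rapamycin at 3 months. Other settings called Pmvk for genotype at 3 months (upper-quartile scaling, a fit of the compared groups alone, or insert size as a term) and for age in TSCmKO (insert size). Mvk was called for genotype at 3 months in a fit of the compared groups alone, for genotype under rapamycin at 3 months in such a fit or without 3mCON+RM replicate 2, and for genotype under rapamycin at 9 months without 9mCON+RM replicate 1. The other 29 members were called at least once.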

How the data were processed

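EDL muscle of 40 mice was sequenced as poly(A)+ RNA, 1 library per mouse. Per the labels and the study's methods, the authors trimmed single-end reads of 50 bases with Cutadapt 1.9.1 and assigned them with kallisto 0.43.1 to Ensembl transcripts of GRCm38, a read that hit several transcripts being divided between them. They summed the shares per gene and deposited estimated counts, with TPM beside them. Division of reads makes the level of near-identical genes uncertain. Here the deposited estimated counts were rounded and tested with edgeR 4.0.16 (robust quasi-likelihood F test, TMM factors, all 40 libraries in 1 fit with a mean per group) in R 4.3.3 with limma 3.58.1, for 13543 of 22844 genes with at least 1 CPM in at least 5 libraries. P-values were adjusted by Benjamini-Hochberg over all genes tested, with 0.05 as threshold, and SE was derived from log2 fold change and F. The deposited TPM served to compare levels between genes, to sum markers and to set log2 ratios of the members beside those by CPM. No test was run on TPM. Tests were checked on simulated data.

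Groups came from the sample labels, and each column of values matched a sample. Alternatives were DESeq2 1.42.0, other scaling, no filter, only the groups compared, each library left out, and insert size, adipocyte marker level (mean log2 CPM of 5 genes) or replicate number as a term. The library with no insert size, 9mTSCmKO+RM replicate 5, was dropped from that fit. The members and lists were chosen with earlier results of these data known. By the rule for named genes, each member was accounted for, and in each pairwise comparison up to 4 called members per arm, those with the smallest p, had values per library given. Such values of Fasn and Scd1, and those of a gene followed into further comparisons, were added after they were seen, as were the genes named from the pathway list. Some results for the pathway list are not reported here. Totals of 8883870 to 35224669 counts set the precision of low genes.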

Additional observations from a re-analysis of the deposited data

Results flagged for a closer look

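Of 272 pairs of a member and a group, 24 held 1 library whose distance to its nearest neighbor was large against the range of the group (Dixon's 95% limit for 5 samples), and chance alone flags about 1 pair in 20. In 3mCON replicate 3, 4 members stood above the rest of the group, with Insig1 at 21.0, Mvd at 5.33, Fasn at 55.6 and Scd1 at 583 CPM. In 9mTSCmKO replicate 1, Elovl6 (102 CPM) and Scd1 (127 CPM) were high and Msmo1 (2.29 CPM) was low. In 3mCON+RM, Scap of replicate 3 (29.6 CPM), and Hmgcs1 (55.6 CPM) and Nsdhl (4.37 CPM) of replicate 5 stood apart. In 3mTSCmKO+RM these were Srebf2 (12.6 CPM) and Mvk (8.09 CPM) of replicate 3, both low, and Acaca of replicate 5 at 106 CPM. Fdft1 stood apart in 3mCON replicate 4 (109 CPM), 9mCON replicate 2 (139 CPM) and 9mTSCmKO+RM replicate 1 (151 CPM). In 9mCON the others were Sc5d of replicate 1 (35.4 CPM, low), and Acly (17.1 CPM) and Fads2 (2.89 CPM) of replicate 5. The remaining values were Srebf2 in 9mCON+RM replicate 3 (16.8 CPM), Scd1 in 9mTSCmKO+RM replicate 4 (115 CPM), Fads2 in 9mTSCmKO+RM replicate 3 (1.14 CPM), Elovl5 in 3mCON replicate 5 (20.8 CPM) and Acss2 in 3mTSCmKO replicate 4 (52.3 CPM).

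The effect of genotype differed between the ages by interaction tests in edgeR for Sc5d (-0.48 on the log2 scale), Fads2 (-1.50) and Acss2 (0.61). In this order the calls were lost in 6, 13 and 14 of 20 fits without 1 library. All were lost in a fit of the compared groups alone. The effect of rapamycin differed between the genotypes at 3 months for Insig1 (-0.84), Sc5d (-0.83) and Me1 (-0.66). These calls were lost in 15, 0 and 7 of 20 fits without 1 library.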

How the results depend on the processing

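Of 81 calls of a member in a comparison, 54 passed the test in every fit without 1 library and 27 were lost in at least 1 of them, while 42 passed it under all 8 other settings. With insert size as a term 18 were lost, with the adipocyte marker level 10. In fits of only the groups compared, 9 members were called for genotype at 3 months (5 in the full fit), 7 for rapamycin in TSCmKO at 9 months (13), 3 for rapamycin in CON at 9 months (5) and 0 for the interaction of genotype and age (3). With insert size as a term 10 members were called for age in TSCmKO (20), 9 of them among the 20. Without the filter, 1 member was called for the interaction of genotype and age (3 with it) and 1 for that of rapamycin and genotype at 3 months (3). DESeq2 called 1 member for age in CON and 1 for the interaction of rapamycin and genotype at 9 months (0 by edgeR for both). Leaving out 1 library gave 3 to 6 members for genotype under rapamycin at 3 months, 0 to 3 for age in CON, 0 to 4 for the interaction of genotype and age, 0 to 1 for that of rapamycin and genotype at 9 months and 1 to 3 for the same at 3 months. Scd1 changed direction for genotype at 9 months, from -0.10 to 0.78 on the log2 scale, with the adipocyte marker level as a term. The calls over all genes rose or fell with such settings too, as given above for genotype at 3 months and for rapamycin and age in TSCmKO. The counts of members in this section stand without shares over all genes, so they do not show shifts particular to the members. The causes of these shifts were not tested.

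The replicate numbers were not taken to pair the samples, since the correlations of same-numbered libraries ran from -0.36 to 0.41 and at most 3 of the 5 pairs of a comparison passed 0.1 (genotype under rapamycin at both ages). With the replicate number as a block, 9 members were called for genotype at 9 months, 5 at 3 months, 13 and 10 for rapamycin in TSCmKO at 9 and 3 months, 4 and 0 in CON, 8 and 5 for genotype under rapamycin, 20 and 0 for age in TSCmKO and CON, and 2, 0 and 2 for the interactions with age and with rapamycin at 9 and 3 months. The block ended 4 calls: Tm7sf2 for genotype under rapamycin at 9 months (adjusted p = 0.0542), Fads2 for rapamycin in CON at 9 months (0.0551) and for the interaction of genotype and age (0.0555), and Insig1 for the interaction of rapamycin and genotype at 3 months (0.0639). Depth limits the lowest members, such as Sqle and Fads2, both under 5 CPM in each library.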
